A study of Rattus norvegicus with 21 samples.

Results

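Retinas of Sprague Dawley rats kept under halogen light at level 200 (Hal200) were compared with retinas of control rats, gene by gene, by RNA sequencing. The comparison rests on 6 of the 21 libraries of the series, 3 from Hal200 and 3 from control, all of the treatment labels Hal200 and control, and on 16006 genes with enough counts among 19099 in the table. All rats carried an age of 8 months in the labels and had been in their light for 6 months. Neither the unit of the light level nor the light that the control rats received is given, and the labels do not state whether each of the 3 samples of a group is a different animal. The p-values therefore reflect how far samples scatter within groups, over all 21 libraries unless stated, and some of that scatter could be technical. The other 15 libraries came from halogen light at level 1000 (Hal1000), blue light at levels 200 and 1000 (Blue200, Blue1000) and LED light at both levels (LED200, LED1000), and are called the other light groups. The study's title names the light of dental work and the barrier between blood and retina.

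Rods are the photoreceptors of dim-light vision and the most numerous cells of a rat retina. Their outer segments hold the visual pigment, and light absorbed there activates transducin, which in turn activates a phosphodiesterase that closes cyclic nucleotide-gated channels. Strong or long light damages rods in albino rats. Müller glia, which span the retina, then raise intermediate filaments and acute-phase proteins, and microglia, the resident macrophages, move to the photoreceptor layer and clear debris with complement and Fc receptors.

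In Hal200 rod genes kept 4.42 to 7.37% of all counts, least in replicate 1, against 8.63 to 9.28% in control. Genes of reactive glia, microglia, complement and antigen presentation were higher beside them, with list medians nearest to control in replicate 3. There the gliosis and complement medians, as log2 ratios to the control mean, were 0.11 and 0.19, below the 0.30 and 0.26 of control replicate 3. Of the 16006 genes, 1897 (11.9%) differed from control, of which 1160 (7.25%) were higher and 737 (4.6%) lower in Hal200, and 269 (1.68%) changed by over 2-fold. Every Hal200 library lay above every control library in 2402 genes (15%) and below in 1746 (10.9%). Counts of list members called against control, and groups that do not overlap, are to be read beside these shares. The lists were chosen with earlier results of these data known. All adjusted p-values are from edgeR's quasi-likelihood test with one spread estimated over all 21 libraries, at a threshold of 0.05, unless another tool is named. When the 6 compared libraries alone were fitted, this test made 0 calls, with 3544 genes at an unadjusted p under 0.05 and a smallest adjusted p of 0.053, so every call below was lost there. On the same 6 libraries DESeq2 called 1596 genes and limma voom 1, the cone gene Gnb3. Without Hal200 replicate 1 the count of calls was 402, without Hal200 replicate 2 757 and without Hal200 replicate 3 3184; without control replicate 1, 2 or 3 it was 735, 747 or 2441. Of 102 named genes with a call, 40 kept it whichever of the 6 libraries was left out, and these are said below to have kept their calls.

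**Figure D1:**
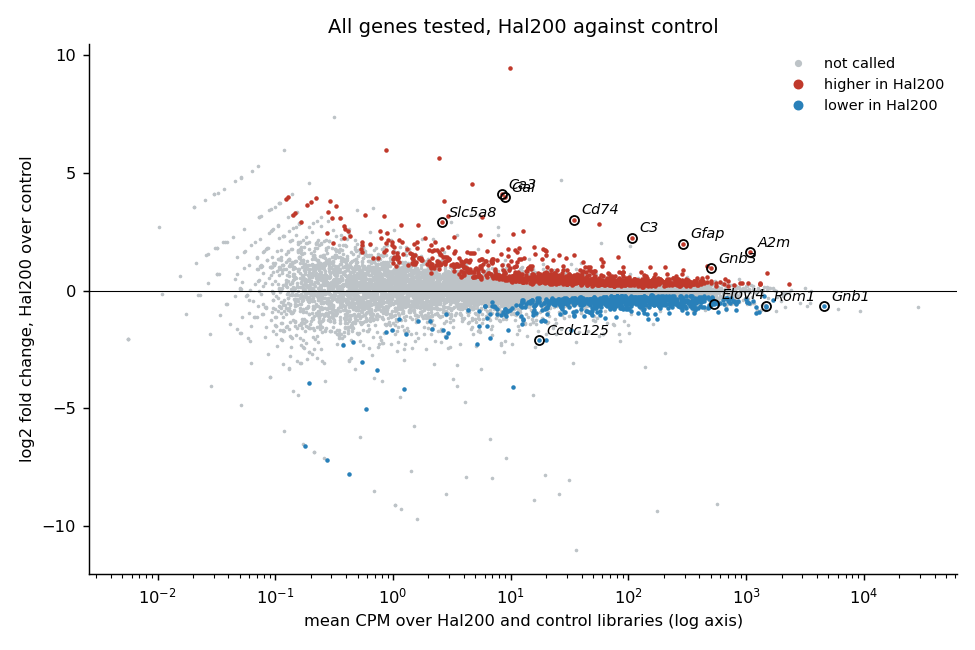
Each point is 1 of the 16006 genes tested, with the mean CPM (counts scaled to library size) over the 6 Hal200 and control libraries on a log axis and the log2 fold change, Hal200 over control, on the other axis. Genes called higher in Hal200 (1160) are red, genes called lower (737) blue, and the circled genes are described in the text.

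Libraries held 33043727 to 35437448 counts in Hal200 and 30404774 to 33102674 counts in control, so 3 counts corresponded to 0.0847 to 0.0987 CPM, a floor that covers counting error only. Lens genes took 0.581% of counts in control replicate 3, at most 0.0118% in the other control libraries and at most 0.00902% in Hal200, so control replicate 3 held far more lens RNA than the other 5 libraries. Control replicate 3 also had the highest gliosis, microglia and complement medians among the control libraries, at log2 ratios of 0.30, 0.28 and 0.26 to the control mean. Scaling that holds the median bipolar cell gene level moved the median of all genes to -0.23, against -0.01 in the scaling used here, and then 8.25% of 3613 calls were higher in Hal200, against 61.1% of 1897. A fold change in this text is therefore relative to the bulk of genes, and the direction of small list medians depends on that choice where stated.

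Rod genes together took 4.42, 6.10 and 7.37% of all counts in Hal200 replicates 1, 2 and 3, against 9.28, 8.63 and 9.10% in control. The Hal200 libraries all lay under the control libraries, but 3 libraries against 3 cannot reach an exact permutation p under 0.1. In the other light groups the same 36 genes took 0.15 to 0.468% of counts. Hal200 was singled out as the light group that keeps most rod RNA, so its place nearer to control describes that choice. In whole-retina RNA, fewer rods and less RNA per rod cannot be told apart.

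**Figure D2:**
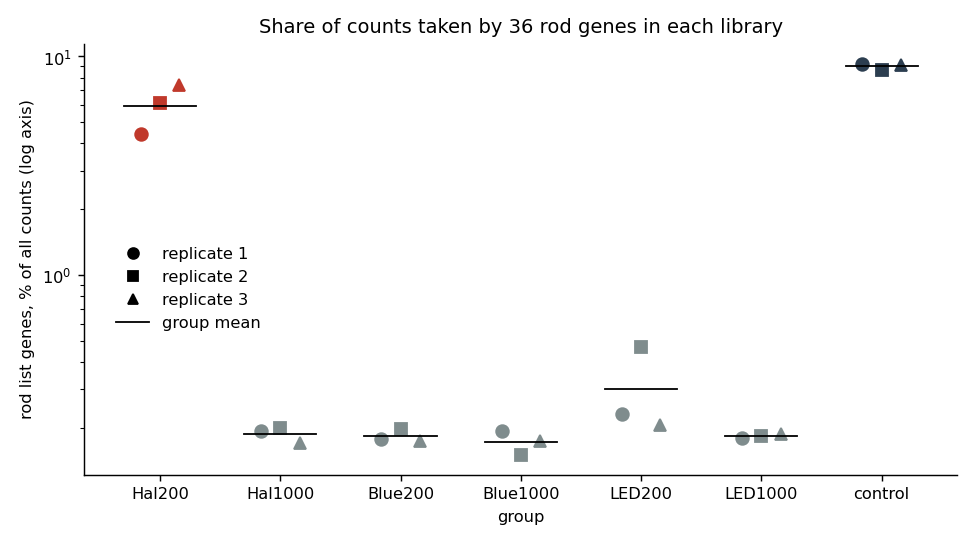
Points are libraries and bars are group means; the y axis, on a log scale, gives the percent of all counts taken by 36 rod genes. The Hal200 libraries sit at 4.42 to 7.37%, the other light groups at 0.15 to 0.468% and control at 8.63 to 9.28%.

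All 36 rod genes had a fitted fold change below 0, as had 50.7% of all genes, with a median of -0.58 log2 units against -0.006 over all genes. In 26 of them every Hal200 library lay below every control library, a pattern that 10.9% of all genes showed. Only 5 of the 36 passed the test, all lower, beside 4.6% of all genes. Gnb1, the beta subunit of rod transducin, had 2697, 3577 and 4562 CPM in Hal200, against 5990, 5277 and 5672 CPM in control (-0.64 ± 0.13 log2 units, adjusted p = 0.0043), and kept its call. Rom1, a protein of disc rims in the outer segment, had 901, 1148 and 1378 CPM in Hal200, against 1918, 1655 and 1869 CPM in control (-0.67 ± 0.14, adjusted p = 0.0063). Prom1, a membrane protein of newly forming discs, had 265, 320 and 373 CPM in Hal200, against 514, 487 and 487 CPM in control (-0.64 ± 0.17, adjusted p = 0.023). In these 3 genes no Hal200 library reached the lowest control library. The other two called genes were Unc119, a carrier of transducin (-0.48 ± 0.13, adjusted p = 0.022), and Rdh12, a retinol dehydrogenase (-0.89 ± 0.27, adjusted p = 0.04). Rom1 lost its call without Hal200 replicate 1 (adjusted p = 0.052), and Prom1 and Unc119 without Hal200 replicate 1 or 2 or control replicate 1 or 2 (adjusted p from 0.067 to 0.15). The count of called rod genes was 1 without Hal200 replicate 1, 2 without Hal200 replicate 2 or control replicate 1 or 2, and 12 without Hal200 replicate 3.

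Other well-known rod genes were not among these calls, although many of them did not overlap between the groups. Gnat1, the alpha subunit of rod transducin, had 4236, 6669 and 8721 CPM in Hal200, against 13547, 10433 and 11782 CPM in control (-0.87 ± 0.89, adjusted p = 0.57). It was lower in all 3 Hal200 libraries than in any control library, and its standard error was large in the fit over all libraries. Across the other light groups Gnat1 ranged from 1.08 to 141 CPM. With DESeq2 on the 6 compared libraries alone, 26 of the 36 rod genes were called, Gnat1 (adjusted p = 0.0022) among them, and voom with library quality weights over all libraries called 25.

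Other steps of the rod light response had values of the same kind. Pde6b, a catalytic subunit of the rod phosphodiesterase, had 926, 1244 and 1697 CPM in Hal200, against 2459, 2368 and 2103 CPM in control (adjusted p = 0.49). Cnga1, a subunit of the rod cation channel, had 336, 498 and 624 CPM in Hal200, against 924, 869 and 807 CPM in control (adjusted p = 0.39). Sag, the arrestin that ends the rod light response, had 3482, 4606 and 5309 CPM in Hal200, against 8733, 8509 and 5847 CPM in control (adjusted p = 0.24). None of the 3 genes overlapped between the groups, and none passed the edgeR test. Among the transcription factors that set rod identity, Nrl had 343, 504 and 683 CPM in Hal200, against 948, 786 and 768 CPM in control (adjusted p = 0.57). Nr2e3, which Nrl induces in rods, had 322, 466 and 645 CPM in Hal200, against 605, 735 and 594 CPM in control, and its groups overlapped. Crx, which both rods and cones need, had 305, 416 and 515 CPM in Hal200, against 542, 549 and 506 CPM in control (-0.37 ± 0.15, adjusted p = 0.11), with Hal200 replicate 3 inside the control range. On a scale that divides by gene length, the FPKM levels were 1902, 2898 and 3633 for Gnat1 in Hal200, against 5423, 4221 and 4858 in control, and 466, 663 and 861 for Nrl in Hal200, against 1148, 961 and 958 in control, so Gnat1 was the more abundant transcript in each of the 6 libraries.

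The 3 Hal200 libraries differed in how low the rod genes lay, which was known when Hal200 was singled out. Every one of the 36 genes was lowest in replicate 1 and highest in replicate 3. Relative to the control mean, the median rod gene stood at -1.03 log2 units in Hal200 replicate 1, -0.63 in replicate 2 and -0.21 in replicate 3, whereas the control libraries stood at 0.06, 0.01 and -0.07.

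**Figure D3:**
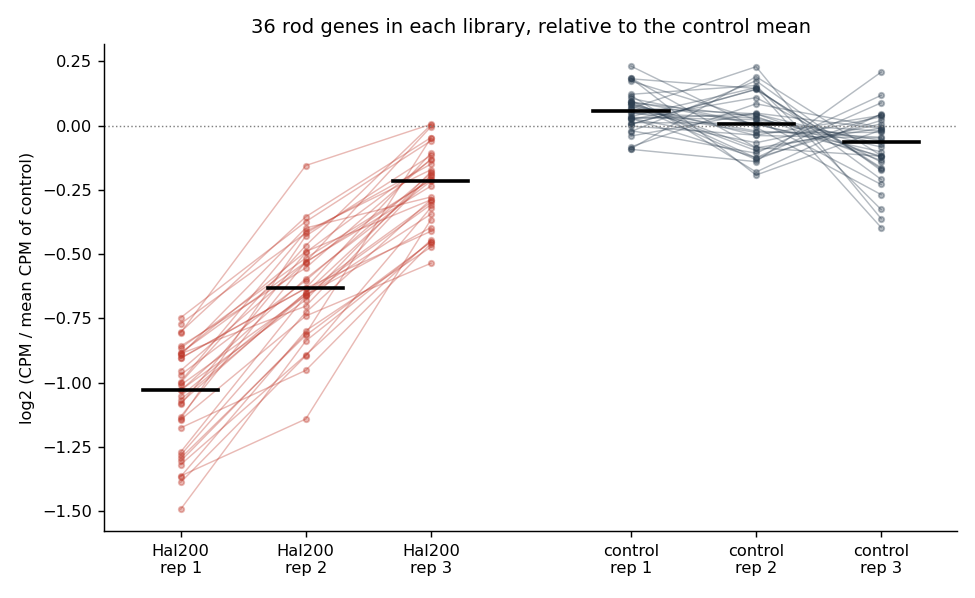
Each thin line is 1 of 36 rod genes, drawn as log2 of its CPM over the control mean in every Hal200 and control library, and thick bars are library medians. The medians are -1.03, -0.63 and -0.21 in Hal200 replicates 1, 2 and 3 and 0.06, 0.01 and -0.07 in control, and all 36 genes are lowest in Hal200 replicate 1.

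Genes of the photoreceptor synapse and of photoreceptor metabolism lay lower as well. All 15 tested had a fold change below 0 (median -0.47), and 3 passed the test. Elovl4, the elongase that makes the very long fatty acids of outer segment membranes, had 343, 440 and 505 CPM in Hal200, against 654, 624 and 646 CPM in control (-0.58 ± 0.10, adjusted p = 0.0024), and kept its call. Hk2, the hexokinase through which photoreceptors run aerobic glycolysis, had 163, 265 and 310 CPM in Hal200, against 592, 446 and 400 CPM in control (-0.96 ± 0.29, adjusted p = 0.044). Lrit1, a protein of the photoreceptor synapse, had 252, 266 and 253 CPM in Hal200, against 377, 329 and 330 CPM in control (-0.43 ± 0.11, adjusted p = 0.022). The groups overlapped in none of the 3 genes. The calls of Hk2 and Lrit1 were lost without Hal200 replicate 1 or 2 or control replicate 1 or 2 (adjusted p from 0.052 to 0.22), and the count of calls was then 1. Hk2 was also lost with no filter on low counts (adjusted p = 0.058). The count was 9 without Hal200 replicate 3 and 5 without control replicate 3.

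Cone genes did not lie low with the rod genes. The cone list held 3 of 15 tested genes called higher and 0 called lower, beside 7.25% and 4.6% of all genes. Its median of 0.12 turned to -0.11 when scaled to the bipolar list. Gnb3, the beta subunit of cone transducin that ON bipolar cells also use, had 617, 686 and 692 CPM in Hal200, against 344, 369 and 312 CPM in control (0.96 ± 0.09, adjusted p = 1.2e-05), and it kept its call. It had 411 to 537 CPM in the other light libraries, and Hal200 was higher than these too (0.52 ± 0.07, adjusted p = 3e-06). Gnat2, the cone transducin alpha subunit (0.47 ± 0.15, adjusted p = 0.045), and Gngt2, its gamma subunit (0.60 ± 0.18, adjusted p = 0.037), were called as well, and both lost the call when scaled to the bipolar list or without Hal200 replicate 1 or control replicate 2 (adjusted p from 0.16 to 0.32). Gnat2 lost it without control replicate 3 (adjusted p = 0.1), with voom quality weights (adjusted p = 0.12) and with DESeq2 size factors (adjusted p = 0.05) too, and Gngt2 without Hal200 replicate 2 or control replicate 1 (adjusted p = 0.079 and 0.065). The list's count of calls was 1 without Hal200 replicate 1 or control replicate 2. The cone opsins gave no call. Opn1sw had 34.9, 33.7 and 22.0 CPM in Hal200, against 22.6, 11.5 and 14.9 CPM in control (adjusted p = 0.15), and Opn1mw had 81.4, 62.0 and 63.4 CPM in Hal200, against 58.8, 65.4 and 65.6 CPM in control (adjusted p = 0.84). Arr3, the cone arrestin, had 75.9, 64.0 and 80.9 CPM in Hal200, against 79.3, 93.0 and 61.3 CPM in control.

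Among neurons of the inner retina, which receive the photoreceptors' signal, the ganglion and amacrine lists took a higher share of counts in every Hal200 library than in any control library. Ganglion cell genes took 0.45, 0.428 and 0.386% of counts in Hal200, against 0.351, 0.345 and 0.337% in control, and amacrine genes 0.411, 0.376 and 0.342% in Hal200, against 0.29, 0.294 and 0.291% in control. Bipolar shares overlapped, at 0.34 to 0.402% in Hal200 and 0.312 to 0.358% in control, and horizontal cell shares lay close together, at 0.102 to 0.106% in Hal200 and 0.0994 to 0.102% in control. Ganglion cell genes, which mark the output neurons, had 14 of 21 members called higher and 0 lower (median 0.50, and 0.26 scaled to the bipolar list). Pou4f1, a transcription factor of ganglion cells, had 63.9, 54.6 and 47.4 CPM in Hal200, against 33.7, 30.6 and 31.8 CPM in control (0.79 ± 0.12, adjusted p = 0.0011). Nefm, a neurofilament of their axons, had 244, 205 and 193 CPM in Hal200, against 158, 138 and 142 CPM in control (0.55 ± 0.09, adjusted p = 0.0012). Thy1, a surface protein of ganglion cells (0.44 ± 0.06), and Tubb3, a neuronal tubulin (0.50 ± 0.08), rose with them (adjusted p = 0.00099 and 0.0011). The 4 genes kept their calls, their groups did not overlap, and Thy1 alone of them lost the call when scaled to the bipolar list (adjusted p = 0.077).

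Amacrine and bipolar cells moved less. Among amacrine genes 5 of 19 were called higher, beside 7.25% of all genes (median 0.24, and 0.02 scaled to the bipolar list). Calb2, the calcium-binding protein calretinin, had 838, 768 and 710 CPM in Hal200, against 585, 533 and 535 CPM in control (0.49 ± 0.09, adjusted p = 0.0031). Slc18a3 and Chat, the acetylcholine transporter and synthase of starburst amacrine cells, were at 0.64 ± 0.13 (adjusted p = 0.0057) and 0.43 ± 0.10 (adjusted p = 0.0092). Calb2 and Chat lost the call when scaled to the bipolar list (adjusted p = 0.083 and 0.18), and Chat also without Hal200 replicate 1 (adjusted p = 0.061). Among bipolar genes 6 of 20 were called higher and 1 lower, beside 7.25% and 4.6% of all genes. Their median of 0.13 is -0.10 when the list itself sets the scale. Vsx1, a transcription factor of cone bipolar cells, had 33.2, 28.2 and 29.9 CPM in Hal200, against 21.6, 21.8 and 21.7 CPM in control (0.49 ± 0.09, adjusted p = 0.0022), a call lost when scaled to the bipolar list (adjusted p = 0.066). Otx2, which photoreceptors and bipolar cells share, had 395, 467 and 621 CPM in Hal200, against 760, 779 and 573 CPM in control (-0.51 ± 0.12, adjusted p = 0.014), with Hal200 replicate 3 inside the control range. Otx2 lost its call without Hal200 replicate 1 or 2 or control replicate 1 or 2 (adjusted p from 0.077 to 0.12). The amacrine count was 2 without Hal200 replicate 1 and 3 without Hal200 replicate 2 or control replicate 1 or 2. Of 10 horizontal cell genes 1 was called higher and 1 lower, near the 7.25% and 4.6% of all genes. The higher gene was Tfap2b, a transcription factor (0.29 ± 0.07, adjusted p = 0.016). The lower was Septin4, a cytoskeletal GTPase (-0.26 ± 0.07, adjusted p = 0.017), and the list's median of 0.14 turned to -0.08 scaled to the bipolar list. Tfap2b was lost on that scale (adjusted p = 0.55) and without Hal200 replicate 1 or control replicate 2 or 3 (adjusted p from 0.066 to 0.084), and Septin4 without Hal200 replicate 1 or 2 or control replicate 1 or 2 (adjusted p from 0.067 to 0.13). The horizontal count was 0 without Hal200 replicate 1 or control replicate 2 and 1 without Hal200 replicate 2 or control replicate 1 or 3. The bipolar count of 7 was 2 without Hal200 replicate 1 or control replicate 1 and 4 without Hal200 replicate 2.

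Müller glia and gliosis genes were higher in Hal200, most clearly in replicates 1 and 2. The gliosis list took 0.469, 0.453 and 0.285% of counts in Hal200, against 0.168, 0.168 and 0.252% in control. Its median log2 ratio to the control mean was 0.11 in Hal200 replicate 3 and 0.30 in control replicate 3. Reactive gliosis genes had 14 of 34 members called higher and 0 lower (median 0.56, and 0.33 scaled to the bipolar list). Gfap, the intermediate filament of reactive glia, had 596, 583 and 231 CPM in Hal200, against 108, 96.8 and 146 CPM in control (2.01 ± 0.27, adjusted p = 0.00099). A2m, a secreted protease inhibitor of the acute phase, had 1687, 1873 and 1378 CPM in Hal200, against 468, 473 and 638 CPM in control, a mean 3.13-fold higher (1.65 ± 0.13, adjusted p = 2.7e-06). Both genes kept their calls and were higher in all 3 Hal200 libraries than in any control library, Gfap least so in replicate 3. Vim, another intermediate filament, had 347, 375 and 238 CPM in Hal200, against 221, 211 and 560 CPM in control, where the highest value belongs to control replicate 3, the library with lens RNA. Its fold change was -0.05 ± 0.35 and turned to 0.55 without control replicate 3 (adjusted p = 0.22). The gliosis count was 6, 7, 8 and 7 without Hal200 replicate 1, Hal200 replicate 2, control replicate 1 and control replicate 2.

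Cytokine signalling to Müller glia through leukemia inhibitory factor and its relatives runs over shared receptors, JAK kinases and STAT3. Of 18 tested genes of this pathway 5 were called higher and 0 lower, and the median was 0.19, or -0.03 scaled to the bipolar list. The ligand Lif had 5.69, 6.11 and 2.35 CPM in Hal200, against 2.18, 2.14 and 2.16 CPM in control (1.13 ± 0.30, adjusted p = 0.021). Osmr, the oncostatin M receptor, had 20.1, 23.4 and 12.1 CPM in Hal200, against 3.40, 4.65 and 7.53 CPM in control (1.83 ± 0.24, adjusted p = 0.00057). Socs3, a target of STAT3 that feeds back on its receptors, had 32.5, 35.2 and 19.3 CPM in Hal200, against 7.94, 6.11 and 11.1 CPM in control (1.79 ± 0.33, adjusted p = 0.0039). The ligand, the receptor and the target were all higher in each Hal200 library than in any control library, as were 15% of all genes. For Lif, Hal200 replicate 3 was near control, at 2.35 CPM against at most 2.18 CPM. Bcl3, a partner of NF-kB induced by the same cytokines, was at 1.87 ± 0.28 (adjusted p = 0.0011). Socs3 (1.22 ± 0.23, adjusted p = 0.00032) and Bcl3 (1.28 ± 0.19, adjusted p = 1.9e-05) were also higher in Hal200 than in the mean of the other light groups. Stat3 itself had 243, 288 and 205 CPM in Hal200, against 222, 216 and 193 CPM in control (adjusted p = 0.14). Osmr, Socs3 and Bcl3 kept their calls, and Lif lost its call without Hal200 replicate 1 or 2 or control replicate 1 or 2 (adjusted p from 0.071 to 0.12), when the pathway's count was 3.

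Genes of the supportive functions of Müller glia were higher rather than lower. The list took 1.27, 1.24 and 0.974% of counts in Hal200, against 0.833, 0.854 and 1% in control, with Hal200 replicate 3 inside the control range. Of 19 tested genes 9 were called higher and 0 lower (median 0.34, and 0.12 scaled to the bipolar list). Kcnj10, the potassium channel by which these cells buffer potassium, had 196, 192 and 165 CPM in Hal200, against 130, 132 and 138 CPM in control (0.47 ± 0.07, adjusted p = 0.0014). Slc1a3, their glutamate transporter, had 637, 624 and 432 CPM in Hal200, against 378, 367 and 368 CPM in control (0.60 ± 0.11, adjusted p = 0.0036). Crym, a thyroid hormone-binding protein, had 782, 693 and 428 CPM in Hal200, against 300, 284 and 327 CPM in control (1.06 ± 0.16, adjusted p = 0.0011). The groups overlapped in none of these 3 genes, and all 3 kept their calls, although Kcnj10 lost it when scaled to the bipolar list (adjusted p = 0.054). Glul, glutamine synthetase, gave no call at 3666, 3437 and 3376 CPM in Hal200, against 3367, 3412 and 3890 CPM in control. Aqp4, the water channel of glial endfeet, was at 0.43 ± 0.11 (adjusted p = 0.02), with groups that overlapped, and lost its call when scaled to the bipolar list (adjusted p = 0.29) or without Hal200 replicate 1 or 2 or control replicate 1 or 2 (adjusted p from 0.085 to 0.13), when the list's count was 4.

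Homeostatic microglia genes were higher in Hal200 as well. Of 20 tested, 11 were called higher and 0 lower (median 1.18, and 0.92 scaled to the bipolar list). The list took 0.0316, 0.0289 and 0.0172% of counts in Hal200, against 0.0127, 0.0125 and 0.0165% in control. Tmem119, a marker of resident microglia, had 7.64, 6.62 and 4.90 CPM in Hal200, against 2.47, 1.72 and 1.99 CPM in control (1.63 ± 0.25, adjusted p = 0.0011). Ptprc, the leukocyte antigen CD45, had 4.10, 3.38 and 2.51 CPM in Hal200, against 0.923, 0.787 and 0.912 CPM in control (1.93 ± 0.31, adjusted p = 0.0013). Cd33, a sialic acid receptor of myeloid cells, had 4.85, 3.89 and 2.25 CPM in Hal200, against 0.702, 0.900 and 0.980 CPM in control (2.08 ± 0.27, adjusted p = 0.00043). These 3 genes kept their calls, and their lowest Hal200 library lay above their highest control library. Slc2a5, a fructose transporter of microglia, had 7.86, 15.9 and 4 CPM in Hal200, against 1.40, 1.35 and 2.57 CPM in control (2.38 ± 0.40, adjusted p = 0.0018), and was also higher than in the other light groups (1.13 ± 0.26, adjusted p = 0.0019). The receptors P2ry12 (0.73 ± 0.27, adjusted p = 0.088) and Cx3cr1 (1.21 ± 0.31, adjusted p = 0.018) overlapped between the groups, and Cx3cr1 lost its call without Hal200 replicate 1 or 2 or control replicate 1 or 2 (adjusted p from 0.083 to 0.1). The microglia count was 6 without Hal200 replicate 1 or control replicate 2 and 7 without Hal200 replicate 2.

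Markers of cells that could have come with blood were examined beside these genes. Among 12 lymphocyte and neutrophil markers with counts, 5 had enough counts to test, and 1 was called, Cd4 (1.05 ± 0.23, adjusted p = 0.0079), which rat macrophages and microglia also carry. It lost its call without Hal200 replicate 1 (adjusted p = 0.072), which left 0 called. The T-cell gene Cd3d was at 0 to 0.0331 CPM in Hal200 and 0 to 0.0369 CPM in control, and the B-cell gene Ms4a1 at 0 to 0.0311 CPM in Hal200 and 0 to 0.0369 CPM in control, all below the floor. The 12 markers took 0.003, 0.00185 and 0.00155% of counts in Hal200, against 0.00136, 0.00103 and 0.0012% in control.

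Activated phagocyte genes followed with 6 of 24 tested genes called higher and 0 lower (median 0.73, and 0.49 scaled to the bipolar list). The list's share of counts was 0.131, 0.132 and 0.0939% in Hal200, against 0.0882, 0.0851 and 0.114% in control, so the groups overlapped. Lgals3, galectin-3, had 22.5, 21.1 and 8.73 CPM in Hal200, against 1.88, 2.29 and 5.74 CPM in control (2.39 ± 0.49, adjusted p = 0.0069). Ctss, a lysosomal protease of antigen-presenting cells, had 111, 89.5 and 52.1 CPM in Hal200, against 29.0, 29.5 and 41.1 CPM in control (1.34 ± 0.25, adjusted p = 0.0043). Both kept their calls. Fcgr2b, the inhibitory Fc receptor (1.73 ± 0.44, adjusted p = 0.016), and Spp1, osteopontin (1.31 ± 0.32, adjusted p = 0.017), lost them without Hal200 replicate 1 or 2 or control replicate 2 (adjusted p from 0.064 to 0.12). The phagocyte count was then 2, and it was 10 without Hal200 replicate 3. Gpnmb, a phagocyte gene also made by pigment cells, had 22.4, 19.7 and 7.74 CPM in Hal200, against 3.73, 3.79 and 16.9 CPM in control (adjusted p = 0.19), with the highest control value again in replicate 3.

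Complement genes had 11 of 22 members called higher and 0 lower (median 1.06, and 0.83 scaled to the bipolar list). The list's share of counts was 0.101, 0.0782 and 0.0384% in Hal200, against 0.0287, 0.0278 and 0.0393% in control, so Hal200 replicate 3 lay inside the control range. C1qa, a chain of the classical initiator, had 46.3, 30.6 and 13.3 CPM in Hal200, against 10.1, 6.07 and 10.6 CPM in control (1.75 ± 0.39, adjusted p = 0.011). C1s, the protease of the same complex, had 42.2, 32.6 and 16.2 CPM in Hal200, against 7.79, 7.80 and 12.4 CPM in control (1.70 ± 0.28, adjusted p = 0.002). C4b, the next component, had 14.6, 10.3 and 9.69 CPM in Hal200, against 2.22, 2.55 and 3.21 CPM in control (2.11 ± 0.29, adjusted p = 0.00068). In the classical arm each of these genes was higher in all 3 Hal200 libraries than in any control library, as were 15% of all genes. C3, where the pathways meet, had 275, 200 and 57.6 CPM in Hal200, against 43.3, 27.1 and 41.5 CPM in control (2.25 ± 0.48, adjusted p = 0.0092). Hal200 replicate 3 was near control for C3. C1s and C4b kept their calls, C1qa lost its call without Hal200 replicate 1 or control replicate 2 (adjusted p = 0.075 and 0.056), and C3 without Hal200 replicate 1 (adjusted p = 0.062). The complement count was 3 without Hal200 replicate 1, 6 without Hal200 replicate 2 or control replicate 1, and 5 without control replicate 2. C4b and its near copy C4a could share reads in the authors' counting, so the split between them is uncertain.

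Interferon response genes had 10 of 34 members called higher and 1 lower (median 0.92, and 0.67 scaled to the bipolar list). Gbp2, an interferon-induced GTPase, had 22.0, 21.6 and 7.77 CPM in Hal200, against 4.36, 6.71 and 5.54 CPM in control (1.63 ± 0.34, adjusted p = 0.0066). It kept its call. Irf3, a sensor-activated factor upstream of interferon genes, was the called gene that was lower, at 86.5, 85.5 and 128 CPM in Hal200, against 171, 171 and 113 CPM in control (-0.60 ± 0.15, adjusted p = 0.016), with Hal200 replicate 3 above control replicate 3. Irf3 lost its call without Hal200 replicate 1 or 2 or control replicate 1 or 2 (adjusted p from 0.092 to 0.12). The list's 11 calls became 2, 3 and 23 without Hal200 replicates 1, 2 and 3, and 2 and 4 without control replicates 1 and 2.

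Antigen presentation genes had 8 of 20 members called higher and 0 lower (median 1.04, and 0.80 scaled to the bipolar list), and those of class II stood out by size. The list's share of counts was 0.0884, 0.0711 and 0.0347% in Hal200, against 0.0312, 0.0326 and 0.0376% in control, so Hal200 replicate 3 lay inside the control range. Class II molecules, pairs of an alpha and a beta chain, carry peptides on macrophages, microglia and other antigen-presenting cells. Cd74, the invariant chain that guides class II molecules, had 103, 65.1 and 15.9 CPM in Hal200, against 8.16, 7.31 and 7.36 CPM in control (3.01 ± 0.67, adjusted p = 0.012). RT1-Ba, an alpha chain, had 16.5, 8.98 and 1.55 CPM in Hal200, against 0.332, 0.487 and 0.338 CPM in control (4.54 ± 1.01, adjusted p = 0.011). RT1-Bb, its beta chain, had 8.83, 5.69 and 0.0331 CPM in Hal200, against 0.0369, 0.0375 and 0.203 CPM in control (adjusted p = 0.014), and is given without a fold because 2 control libraries held 1 count each. Hal200 replicate 3 was the lowest of its group in all 3 genes and lay under the floor for RT1-Bb, where the groups overlapped. RT1-Da (3.14 ± 0.81, adjusted p = 0.021) and RT1-Db1 (3.17 ± 0.72, adjusted p = 0.011), the chains of the second class II molecule, had the same order of libraries. Without Hal200 replicate 1 all 5 of these genes lost their calls (adjusted p from 0.06 to 0.12), and the list's count was 0. Without control replicate 1 the count was 1, and Cd74, RT1-Ba, RT1-Bb and RT1-Da were lost (adjusted p from 0.051 to 0.098). Without Hal200 replicate 2 or control replicate 2 the count was 4, and it was 14 without Hal200 replicate 3. Cd74 and RT1-Bb were also lost without control replicate 2 (adjusted p = 0.055 and 0.068), and RT1-Da without Hal200 replicate 2 or control replicate 3 (adjusted p = 0.053 and 0.052). With voom quality weights RT1-Ba, RT1-Bb and RT1-Da gave adjusted p of 0.16, 0.24 and 0.054. RT1 genes have near-identical copies that could share reads in the authors' counting, which leaves their values uncertain. Ciita, the transactivator through which class II promoters are switched on, was on the other side, at 6.53, 5.39 and 17.2 CPM in Hal200, against 22.5, 25.0 and 21.3 CPM in control (-1.24 ± 0.56, adjusted p = 0.16), and at 0.0305 to 0.864 CPM in the other light groups.

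The promoters of the 4 class II chain genes called higher together are shown because class II promoters share an element, the Y box, which holds an inverted CCAAT. Each is the 150 bases before the start of the gene on rat chromosome 20 of the RefSeq annotation of GRCr8, printed in the direction of the gene, with the 8-letter motif CTGATTGG in capitals. The regions are chr20:4576907-4577056 on the plus strand for RT1-Ba, chr20:4604119-4604268 on the minus strand for RT1-Bb, chr20:4515265-4515414 on the plus strand for RT1-Da and chr20:4560163-4560312 on the minus strand for RT1-Db1.
RT1-Ba: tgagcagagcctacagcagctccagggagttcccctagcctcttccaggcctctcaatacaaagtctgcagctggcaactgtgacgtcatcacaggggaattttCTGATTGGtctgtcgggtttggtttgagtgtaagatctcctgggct
RT1-Bb: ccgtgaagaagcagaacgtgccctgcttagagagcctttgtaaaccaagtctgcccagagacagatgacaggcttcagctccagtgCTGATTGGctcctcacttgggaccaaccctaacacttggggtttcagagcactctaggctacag
RT1-Da: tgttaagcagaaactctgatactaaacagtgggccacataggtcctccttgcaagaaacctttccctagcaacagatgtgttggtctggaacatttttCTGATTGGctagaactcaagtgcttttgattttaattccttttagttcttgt
RT1-Db1: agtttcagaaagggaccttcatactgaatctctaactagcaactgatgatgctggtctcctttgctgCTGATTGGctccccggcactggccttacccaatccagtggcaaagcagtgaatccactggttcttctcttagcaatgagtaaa
The motif begins 46, 64, 52 and 83 bases before the start in RT1-Ba, RT1-Bb, RT1-Da and RT1-Db1, in that order. Of 6 class II genes looked up, 5 had a promoter in the table and these 4 held the motif. Searched on both strands, where the other strand reads CCAATCAG, it occurs in 820 of 33469 promoter windows of the same length (2.45%). A match of letters is a description and no evidence of binding.

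Chemokines, adhesion molecules and vessel genes moved by less. The cytokine, chemokine and adhesion list had 5 of 25 tested genes called higher, beside 7.25% of all genes, and 0 lower (median 0.41, and 0.18 scaled to the bipolar list). Cxcl14, a chemokine made constitutively in many tissues, was at 0.43 ± 0.07 (adjusted p = 0.0016) and Cx3cl1, the neuronal ligand of a microglial receptor, at 0.36 ± 0.08 (adjusted p = 0.008). Both lost their calls when scaled to the bipolar list (adjusted p = 0.11 and 0.34), and Cx3cl1 also without Hal200 replicate 1 (adjusted p = 0.071). Cxcl13, a chemokine that attracts B cells, had 8.39, 4.88 and 3.14 CPM in Hal200, against 2.22, 2.55 and 2.43 CPM in control (1.19 ± 0.33, adjusted p = 0.025), with all Hal200 libraries above control. Icam1, on which leukocytes hold to endothelium, had 14.4, 12.8 and 6.88 CPM in Hal200, against 7.13, 6.07 and 6.89 CPM in control (0.76 ± 0.22, adjusted p = 0.033), with Hal200 replicate 3 inside the control range. Cxcl13 and Icam1 lost their calls without Hal200 replicate 1 or 2 or control replicate 1 or 2 (adjusted p from 0.053 to 0.22), and Icam1 also without control replicate 3 (adjusted p = 0.052) or scaled to the bipolar list (adjusted p = 0.12). With voom quality weights Cxcl13 was not called (adjusted p = 0.061). The list's count was 1 without Hal200 replicate 1 and 2 without Hal200 replicate 2 or control replicate 1 or 2.

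The inner blood-retinal barrier is formed by endothelial cells joined by tight junctions. Endothelial genes had 5 of 24 members called higher, beside 7.25% of all genes, and 0 lower (median 0.43, and 0.19 scaled to the bipolar list). The list's share of counts was 0.182, 0.173 and 0.137% in Hal200, against 0.123, 0.122 and 0.147% in control, so the groups overlapped. Cldn5, the main claudin of these junctions, had 38.0, 29.9 and 22.1 CPM in Hal200, against 14.6, 15.9 and 22.6 CPM in control (0.76 ± 0.19, adjusted p = 0.017). Vwf, the von Willebrand factor of endothelial granules, had 131, 165 and 65.8 CPM in Hal200, against 56.7, 62.3 and 62.2 CPM in control (1.0 ± 0.25, adjusted p = 0.018). Hal200 replicate 3 lay inside the control range for Cldn5 and just above it for Vwf. Cldn5 and Vwf lost their calls without Hal200 replicate 1 or 2 or control replicate 1 or 2 (adjusted p from 0.051 to 0.13), and Cldn5 also scaled to the bipolar list (adjusted p = 0.069). The endothelial count was 0 without Hal200 replicate 1 or control replicate 1, 2 without Hal200 replicate 2, 1 without control replicate 2 and 8 without Hal200 replicate 3. Of 31 tight and adherens junction genes 2 were called higher, Cldn5 and the endothelial adhesion molecule Esam (0.45 ± 0.11, adjusted p = 0.015), and 1 lower, where 7.25% of all genes were called higher and 4.6% lower, and the median was -0.05. Esam lost its call without Hal200 replicate 1 or control replicate 1 or 3 (adjusted p from 0.051 to 0.12), under bipolar scaling (adjusted p = 0.13) and with voom quality weights (adjusted p = 0.059). The junction count of 3 was 0 without Hal200 replicate 1 or control replicate 1 and 1 without Hal200 replicate 2 or control replicate 2. Plvap, which marks leaky endothelium, had 12.4, 11.7 and 15.2 CPM in Hal200, against 8.64, 12.2 and 11.1 CPM in control (adjusted p = 0.31). Vegfa, the main factor that makes vessels leak and grow, had 245, 232 and 286 CPM in Hal200, against 312, 326 and 278 CPM in control (-0.26 ± 0.09, adjusted p = 0.064), and was called as lower with voom quality weights (adjusted p = 0.0011), with DESeq2 (adjusted p = 0.036), scaled to the bipolar list (adjusted p = 0.0083) and without Hal200 replicate 3 or control replicate 3 (adjusted p = 0.01 and 0.028). Of 29 angiogenic and permeability factors 2 were called higher and 0 lower, no larger a share than the 7.25% of all genes called higher, with a median of 0.16 that turned to -0.08 scaled to the bipolar list. They were Flt1 (0.44 ± 0.13, adjusted p = 0.035), a receptor of Vegfa, and Nrp2 (0.59 ± 0.15, adjusted p = 0.019), a co-receptor, and both lost their calls without Hal200 replicate 1 or 2 or control replicate 1 or 3 (adjusted p from 0.052 to 0.24). Flt1 was also lost without control replicate 2 (adjusted p = 0.1) and scaled to the bipolar list (adjusted p = 0.22). The count of 2 was 0 without Hal200 replicate 1 or 2 or control replicate 1, 1 without control replicate 2, 6 without Hal200 replicate 3 and 5 without control replicate 3.

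**Figure D4:**
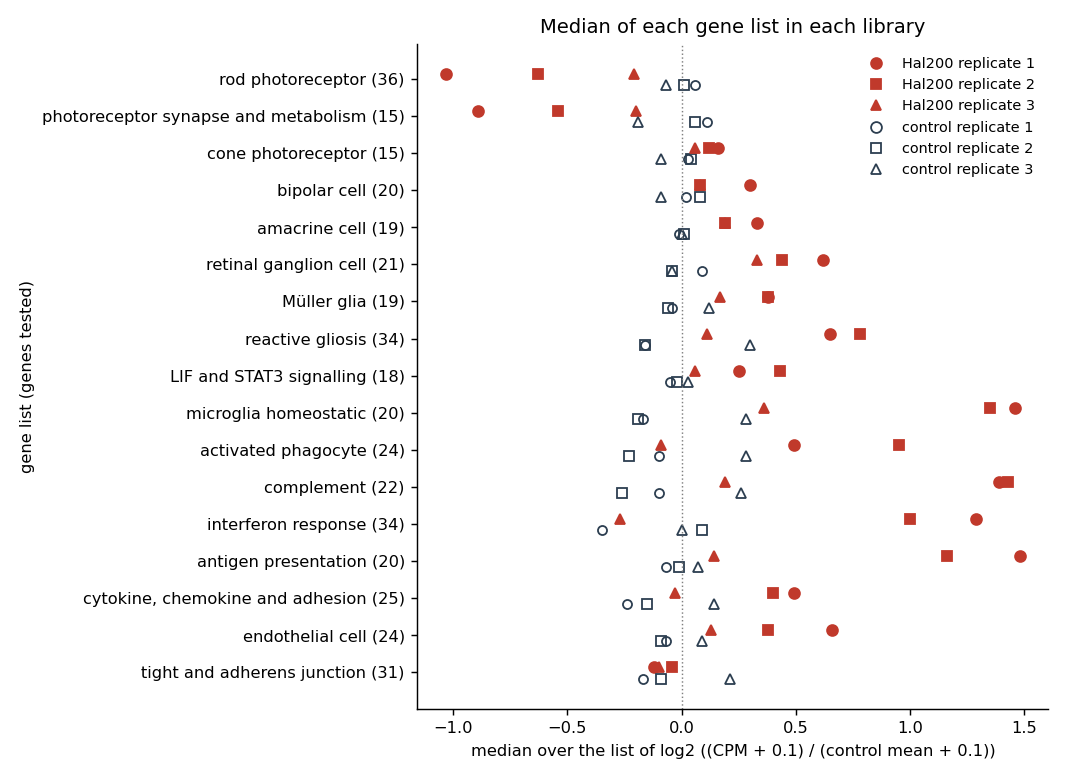
Each row is a gene list with its number of tested genes, and each point is the list's median log2 ratio to the control mean in 1 library, filled for Hal200 and open for control. Rod genes lie at -1.03, -0.63 and -0.21 in Hal200 replicates 1, 2 and 3, while the microglia, complement and antigen presentation medians reach 1.35 to 1.46, 1.39 to 1.43 and 1.16 to 1.48 in replicates 1 and 2. In Hal200 replicate 3 these medians are 0.36, 0.19 and 0.14, against 0.28, 0.26 and 0.07 in control replicate 3, so the complement median lies inside the control range.

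The order of the Hal200 libraries ran through most called genes. Of the 1160 genes called higher, 68.4% were highest in Hal200 replicate 1 and 78.9% were lowest in replicate 3. Of the 737 called lower, 75% were lowest in replicate 1 and 85.3% highest in replicate 3. The library in which rod genes lay nearest to control was thus also the one in which most genes called higher had their lowest Hal200 value. This order was not counted over all genes, so the shares cannot set the called genes apart from the rest. A link between rod level and raised genes was not tested. The interferon list, at medians of 1.29 and 1.0 in Hal200 replicates 1 and 2, stood at -0.27 in replicate 3, against -0.35, 0.09 and 0.00 in the control libraries. A2m, Gnb3, C4b and Slc5a8, picked after their values were seen, were raised in replicate 3 as well, at 1378, 692, 9.69 and 5.23 CPM in that order, against at most 638, 369, 3.21 and 0.712 CPM in control.

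Among the genes of largest rise, several belonged to none of these groups. Ca3, a carbonic anhydrase of muscle and fat, had 23.8, 18.2 and 5.33 CPM in Hal200, against 0.960, 0.974 and 0.811 CPM in control (4.11 ± 0.43, adjusted p = 0.00011), and other light groups held 5.39 to 22.1 CPM. Gal, the neuropeptide galanin, had 22.8, 22.8 and 4.47 CPM in Hal200, against 0.776, 0.974 and 1.42 CPM in control (3.97 ± 0.53, adjusted p = 0.00057). Gli1, a target and transcription factor of hedgehog signalling, had 6.46, 6.11 and 2.61 CPM in Hal200, against 0.259, 0 and 0.811 CPM in control (3.79 ± 0.76, adjusted p = 0.0048). Slc5a8, a sodium-coupled carrier of lactate and other monocarboxylates, had 4.04, 4.46 and 5.23 CPM in Hal200, against 0.517, 0.712 and 0.574 CPM in control (2.92 ± 0.47, adjusted p = 0.0015). These 4 genes kept their calls. No overlap between the groups was a condition for naming a gene among the largest rises. Gal (3.68 ± 0.30, adjusted p = 8.9e-09), Gli1 (2.78 ± 0.44, adjusted p = 4.2e-05) and Slc5a8 (1.84 ± 0.30, adjusted p = 5e-05) were higher in Hal200 than in the other light groups too. Gal reached at most 3.58 CPM there and Gli1 at most 1.32 CPM, below every Hal200 library. Sash3, an adaptor of lymphocytes and other blood cells, had 2.33, 1.68 and 0.562 CPM in Hal200, against 0.148, 0.112 and 0.236 CPM in control (3.16 ± 0.57, adjusted p = 0.0027). Asb15, an ankyrin repeat protein known from muscle, was at 0.0932, 17.3 and 41.1 CPM in Hal200 and at 0 to 0.0369 CPM in control, under the floor, and one Hal200 library was at the floor as well. Its call was lost without control replicate 1 or 2 (adjusted p = 0.081 and 0.083) and with voom quality weights (adjusted p = 0.59).

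**Figure D5:**
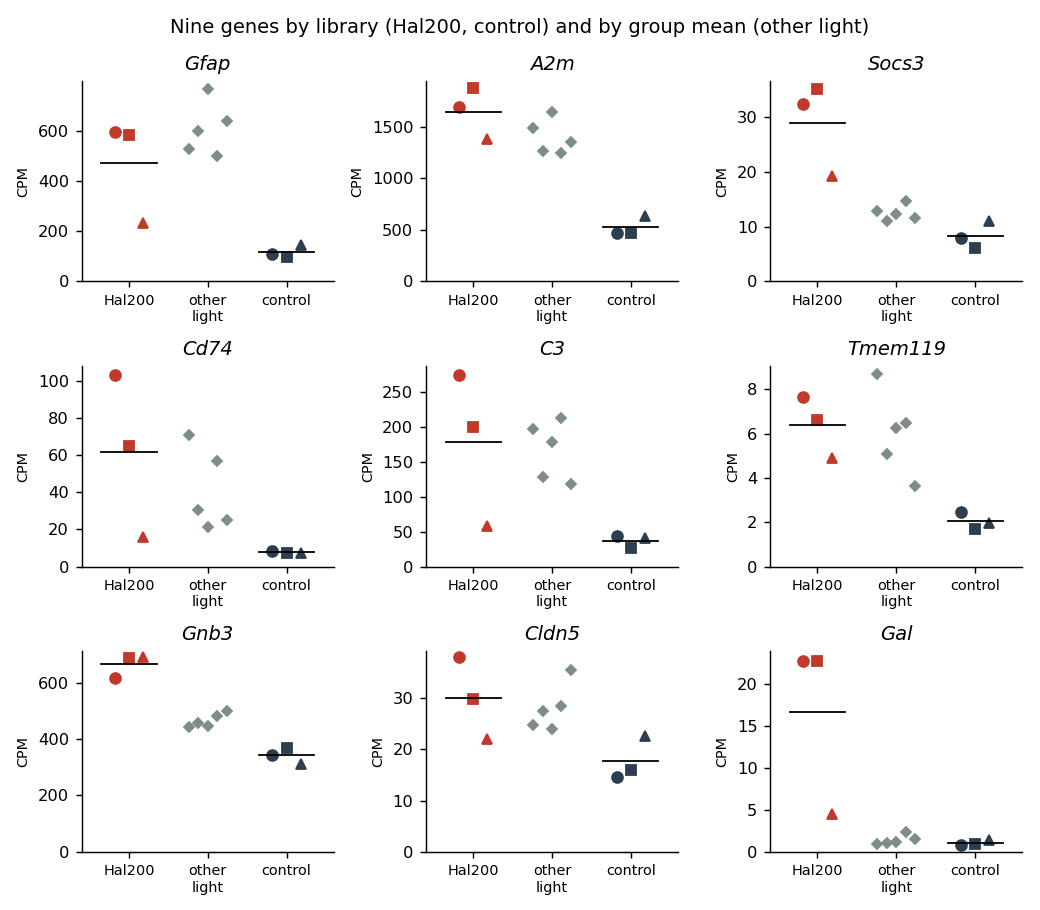
Panels give CPM from 0 upward for 9 genes, with the 3 Hal200 libraries and their mean at the left, the 5 group means of the other light groups in the middle and the 3 control libraries and their mean at the right. Gal is at 22.8, 22.8 and 4.47 CPM in Hal200 against at most 1.42 CPM in control, and Hal200 replicate 3 (triangle) is the lowest of its group in 8 of the 9 panels, Gnb3 being the exception.

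The largest falls were mostly genes of low level. Ccdc125, a coiled-coil protein that slows cell migration, had 10.1, 4.10 and 5.46 CPM in Hal200, against 41.3, 27.7 and 15.1 CPM in control (-2.10 ± 0.33, adjusted p = 0.0013), and kept its call. Mgat4d, a relative of glycosyltransferases known from testis, had 0.839, 2.37 and 4.70 CPM in Hal200, against 11.4, 10 and 10.5 CPM in control (-2.02 ± 0.54, adjusted p = 0.031). In both genes the highest Hal200 library stayed below the lowest control library, which was a condition for naming a gene among the largest falls. Glp1r, the receptor of an incretin hormone, was at 0, 0.180 and 0.199 CPM in Hal200, against 3.32, 1.57 and 2.09 CPM in control (adjusted p = 0.029, with no fold given since a Hal200 library held 0 counts), and DESeq2 over all libraries did not call it (adjusted p = 0.51). Adamts7, a secreted metalloprotease, was at -1.69 ± 0.44 (adjusted p = 0.018), and Rnf183, a ubiquitin ligase, at -1.97 ± 0.49 (adjusted p = 0.016). Mgat4d, Glp1r, Adamts7 and Rnf183 lost their calls without Hal200 replicate 1 or 2 or control replicate 1 (adjusted p from 0.07 to 0.15), and Mgat4d, Glp1r and Adamts7 also without control replicate 2 (adjusted p from 0.068 to 0.09). Others among the largest falls were Dcst2 at -1.80 ± 0.40 (adjusted p = 0.0079), which kept its call, Fitm1 at -1.77 ± 0.51 (adjusted p = 0.032) and Veph1 at -1.85 ± 0.58 (adjusted p = 0.044). Fitm1 lost its call without Hal200 replicate 1 or 2 or control replicate 1 and Veph1 without any 1 Hal200 library or control replicate 3 (adjusted p from 0.087 to 0.4), and Veph1 was not called with voom quality weights (adjusted p = 0.4). Nat8f2 was under the floor in Hal200, at 0.0622, 0 and 0.0331 CPM, against 0.776, 2.51 and 0.135 CPM in control, and is given without a fold.

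Against the mean of the other light groups, which shares no library with control, Hal200 differed in 7057 genes (44.1%), 3704 (23.1%) higher and 3353 (20.9%) lower. All 36 rod genes were higher in Hal200, with a median of 5.04 log2 units, or 5.44 scaled to the bipolar list; Hal200 was singled out as the light group that keeps most rod RNA, so this difference is a description of that choice and not a test. Nr2e3 had 322, 466 and 645 CPM in Hal200, against 0 to 21.7 CPM in the other light libraries. Clul1, a clusterin-like protein of photoreceptors, had 98.6, 136 and 181 CPM in Hal200, against 0 to 5.96 CPM in the other light libraries. Pax7, a homeobox gene known from muscle stem cells, had 3.26, 16.4 and 6.82 CPM in Hal200, against 0 to 0.247 CPM in the other light libraries (adjusted p = 4.5e-07). Edn2, the endothelin that photoreceptors release on damage, had 13.4, 22.0 and 18.2 CPM in Hal200, against 0 to 1.91 CPM in the other light libraries (adjusted p = 7.2e-09) and 10.5, 9.86 and 12.6 CPM in control. Fgf2, a growth factor that protects photoreceptors, had 22.2, 29.8 and 21.4 CPM in Hal200, against 3.11 to 11 CPM in the other light libraries (2.11 ± 0.17, adjusted p = 4.3e-09) and 17.5, 15.4 and 16.4 CPM in control. No fold is given here for Pax7, Edn2 and Tspan10 against the other light groups, because libraries on the lower side were at or under the floor. Their fitted differences are listed further below with that limit. Edn2 (0.70 ± 0.65, adjusted p = 0.52) and Fgf2 (0.57 ± 0.25, adjusted p = 0.13) were above control in all 3 Hal200 libraries without passing the test, and voom quality weights (adjusted p = 0.0065 and 0.0026) and DESeq2 on the 6 compared libraries (adjusted p = 0.027 and 0.019) called both.

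Against the other light groups 23.1% of all genes were called higher and 20.9% lower. Beside these shares few microglia and complement genes differed, whereas many Müller glia and ganglion cell genes did. Of 20 microglia genes 1 was called higher and 1 lower than in the other light groups, with a median of -0.17, or 0.19 scaled to the bipolar list. Of 22 complement genes 0 were called higher and 1 lower, with a median of -0.33, or 0.01 scaled to the bipolar list. Gfap had 444 to 868 CPM in the other light libraries and the test gave no call (-0.35 ± 0.21, adjusted p = 0.18). Of the 34 genes of reactive gliosis 8 were called higher and 8 lower, near the shares of all genes. Their median of -0.32 turned to 0.05 scaled to the bipolar list. Müller glia genes were lower than in the other light groups for 12 of 19 and higher for 0 (median -0.35, and 0.01 scaled to the bipolar list), Kcnj10 (-0.57 ± 0.06, adjusted p = 2.4e-07) among them. Ganglion cell genes were lower for 16 of 21 and higher for 2, with a median of -0.33 that turned to 0.04 scaled to the bipolar list. The pigment epithelium list was lower for 22 of 28 and higher for 0 (median -2.54, and -2.18 scaled to the bipolar list). Rpe65, the isomerase of the visual cycle, had 1.24, 5.33 and 5.43 CPM in Hal200, against 26.5 to 108 CPM in the other light libraries (-3.66 ± 0.57, adjusted p = 9.2e-05) and 2.40, 4.31 and 8.51 CPM in control. Thbs1, thrombospondin-1, had 2.98, 5.36 and 2.65 CPM in Hal200, against 21.6 to 240 CPM in the other light libraries (-4.71 ± 0.68, adjusted p = 4.8e-05), and Tspan10, a tetraspanin of pigment cells, had 0.0311, 0.569 and 0.331 CPM in Hal200, against 3.24 to 15.8 CPM in the other light libraries (adjusted p = 8.3e-05). The interleukin receptor gene Il20ra and the nuclear receptor gene Hnf4a were at or under the floor in all 3 Hal200 libraries, against at least 0.859 and 0.766 CPM in every other light library.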

How the data were processed

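RNA of whole rat retina was sequenced in 21 libraries, 3 in each of 7 groups, and the labels' protocols name the VAHTS Universal V6 library kit. The authors deposited raw read counts per gene for 19099 genes and, beside them, FPKM values, which divide counts by depth and gene length; 1 length per gene accounts for the FPKM of all genes within 0.001 bases. R 3.2.0 is named in the submitters' processing notes, and neither aligner nor counter nor genome build was given in the sources used here. Counts were tested with edgeR 4.0.16 in R 4.3.3 (TMM scaling, genes passing filterByExpr at a minimum count of 10 and a total of 15, a quasi-likelihood F test with robust spread, 1 mean for each group over all 21 libraries), with Benjamini-Hochberg adjustment over 16006 genes and a threshold of 0.05. Contrasts were Hal200 against control and against the mean of the other 5 light groups. CPM values are TMM-scaled counts, and shares are percentages of all raw counts in a library. FPKM were used only to set rod genes beside each other. Scaling to the bipolar list holds the median bipolar gene level. DESeq2 1.42.0, DESeq2 size factors, limma 3.58.1 voom with quality weights, no filter, a replicate block, only the compared groups and leaving out each library were alternatives, and the test was tried on simulated data. The genes and 33 lists were chosen with earlier results of these data known. Named genes were the 10 largest rises and 10 largest falls (called, groups not overlapping, 1 CPM or more on average in the higher group, no provisional symbol), from each list up to 4 called genes, taken by lowest adjusted p, a fixed set, and the 5 largest rises and 5 largest falls against the other light groups; other genes named were chosen after their values were seen. A few genes that these criteria pick are not reported here.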

Additional observations from a re-analysis of the deposited data

Results flagged for a closer look

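Genes of the fixed set and of the largest changes are listed here where Hal200 differed from the mean of the other 5 light groups by edgeR's test of that difference, as log2 differences, Hal200 minus other light. Among photoreceptor genes the differences were Gnat1 9.35, Nr2e3 9.34, Nrl 8.59, Pde6b 8.47, Sag 6.00, Crx 2.59 and Clul1 9.71. Among signalling and other genes they were Gal 3.68, Gli1 2.78, Slc5a8 1.84, Socs3 1.22, Stat3 0.32, Edn2 6.35, Fgf2 2.11, Asb15 8.43 and Pax7 9.44. Genes lower than in control were nonetheless above the other light groups, at Adamts7 1.34, Ccdc125 1.18, Glp1r 4.38, Mgat4d 8.44 and Rnf183 2.30. Glial and vessel-related genes lay below them, at Aqp4 -0.23, Kcnj10 -0.57, Rlbp1 -0.56, Vegfa -0.40 and Gpnmb -1.13, and Aqp4 was at 0.13 when scaled to the bipolar list. Pigment epithelium genes and others with low levels in Hal200 were at Rpe65 -3.66, Thbs1 -4.71, Tspan10 -4.88, Il20ra -4.74, Hnf4a -5.80, Sult1c3 -6.74 and Veph1 -2.50. Asb15, Clul1, Edn2, Glp1r, Hnf4a, Il20ra, Mgat4d, Nr2e3, Pax7, Rnf183, Sult1c3 and Tspan10 had libraries at or near the floor of 3 counts in Hal200 or the other light groups, so the sizes of their differences depend on the prior count of the fit and are not bounds. Hal200 was singled out for keeping rod RNA, so the photoreceptor differences describe that choice. The groups of 3 libraries were too small to look for single libraries far from the others.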

How the results depend on the processing

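Counts of calls that moved by over 1.5 times are given with the count in the text after "against", and the causes were not tested. With DESeq2 the counts were all genes lower 1139 (against 737), rod photoreceptor 8 (against 5), photoreceptor synapse and metabolism 5 (against 3), astrocyte 2 (against 1), lymphocyte and neutrophil 2 (against 1), angiogenic and permeability factor 4 (against 2), lens 11 (against 0), erythrocyte 1 (against 0), heat shock 1 (against 0), immediate early 7 (against 3) and cell cycle 2 (against 0). Scaled to the bipolar list they were all genes called 3613 (against 1897), all genes higher 298 (against 1160), all genes lower 3315 (against 737), against other light higher 8026 (against 3704), against other light lower 393 (against 3353), rod photoreceptor 11 (against 5), photoreceptor synapse and metabolism 10 (against 3), bipolar cell 2 (against 7), amacrine cell 1 (against 5), retinal ganglion cell 9 (against 14), Müller glia 2 (against 9), astrocyte 0 (against 1), cytokine, chemokine and adhesion 1 (against 5), lymphocyte and neutrophil 2 (against 1), endothelial cell 1 (against 5), pericyte and smooth muscle 0 (against 1), angiogenic and permeability factor 4 (against 2), retinal pigment epithelium 0 (against 1), heat shock 4 (against 0), integrated stress and unfolded protein response 9 (against 2), immediate early 5 (against 3), antioxidant 4 (against 2) and cell cycle 5 (against 0). With voom quality weights they were all genes called 4750 (against 1897), all genes higher 2163 (against 1160), all genes lower 2587 (against 737), rod photoreceptor 25 (against 5), photoreceptor synapse and metabolism 14 (against 3), horizontal cell 4 (against 2), amacrine cell 8 (against 5), astrocyte 2 (against 1), LIF and STAT3 signalling 8 (against 5), activated phagocyte 11 (against 6), antigen presentation 13 (against 8), cytokine, chemokine and adhesion 9 (against 5), lymphocyte and neutrophil 2 (against 1), endothelial cell 9 (against 5), tight and adherens junction 8 (against 3), pericyte and smooth muscle 2 (against 1), angiogenic and permeability factor 9 (against 2), retinal pigment epithelium 2 (against 1), skeletal muscle 1 (against 0), heat shock 4 (against 0), integrated stress and unfolded protein response 5 (against 2), immediate early 9 (against 3), antioxidant 10 (against 2) and cell cycle 3 (against 0). With DESeq2 on the 6 compared libraries, chosen after seeing the data, they were rod photoreceptor 26 (against 5), photoreceptor synapse and metabolism 8 (against 3), astrocyte 2 (against 1), lymphocyte and neutrophil 2 (against 1), retinal pigment epithelium 0 (against 1), iris, ciliary body and cornea 1 (against 0), cell death 2 (against 4) and cell cycle 2 (against 0). With DESeq2 size factors 1 count moved, cell cycle 1 (against 0). With a replicate block 1455 genes were called, and the moved counts were cone photoreceptor 1 (against 3) and integrated stress and unfolded protein response 0 (against 2). Deviations of same-numbered libraries from their group means correlated at -0.0596, -0.109 and -0.219. With 3 libraries in a group such values cannot show whether the numbers pair the samples. On the 6 compared libraries edgeR called 0 genes, 0 higher and 0 lower, and 0 in every list, and voom, chosen after seeing the data, called 1, 1 higher and 0 lower, 1 in the cone list and 0 in the others. Leaving out 1 library at a time gave all genes called 402 to 3184, all genes higher 317 to 1596, all genes lower 85 to 1588, rod photoreceptor 1 to 12, cone photoreceptor 1 to 3, photoreceptor synapse and metabolism 1 to 9, bipolar cell 2 to 8, horizontal cell 0 to 3, amacrine cell 2 to 6, Müller glia 4 to 10, astrocyte 0 to 1, reactive gliosis 6 to 17, LIF and STAT3 signalling 3 to 6, microglia homeostatic 6 to 14, activated phagocyte 2 to 10, complement 3 to 13, interferon response 2 to 23, antigen presentation 0 to 14, cytokine, chemokine and adhesion 1 to 7, lymphocyte and neutrophil 0 to 1, endothelial cell 0 to 8, tight and adherens junction 0 to 3, pericyte and smooth muscle 0 to 2, angiogenic and permeability factor 0 to 6, retinal pigment epithelium 0 to 2, skeletal muscle 0 to 1, erythrocyte 0 to 1, heat shock 0 to 4, integrated stress and unfolded protein response 0 to 4, immediate early 0 to 7, antioxidant 0 to 4, cell death 0 to 6, cell cycle 0 to 3. The log2 fold change against control changed sign for Arr3 (0.01 and 0.07 without Hal200 replicate 2 or control replicate 2), Glul (0.02 with voom quality weights, 0.03 without control replicate 3), Rpe65 (0.11 with voom quality weights, 0.08 without Hal200 replicate 1, 0.24 without control replicate 3), Serpina3n (-0.03 without Hal200 replicate 1) and Vim (0.51 with voom quality weights, 0.12 without Hal200 replicate 3, 0.55 without control replicate 3, 0.08 with voom on the 6 libraries). Against other light Aqp4 turned to 0.13 scaled to the bipolar list. With 1 library left out at a time, Arr3 ranged over -0.24 to 0.07, Glul -0.07 to 0.03, Rpe65 -0.68 to 0.24, Serpina3n -0.03 to 2.53 and Vim -0.28 to 0.55. Of 102 named calls 62 were lost without at least 1 library, 60 of them without Hal200 replicate 1. Genes near 3 counts in a library cannot be told from absence at this depth.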

Other observations

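Stress and death genes moved by small amounts. Of 32 genes of the integrated stress and unfolded protein responses, 29 had a fold change below 0, as had 50.7% of all genes. Their median was -0.15, or -0.36 scaled to the bipolar list, where 9 were called. In 6 of the 32 every Hal200 library lay below every control library, as in 10.9% of all genes. The test called 0 higher, and 2 were called lower, near the 4.6% of all genes. They were Asns, asparagine synthetase, at 54.6, 65.2 and 67.8 CPM in Hal200, against 78.4, 112 and 65.1 CPM in control (-0.44 ± 0.13, adjusted p = 0.035), and Ppp1r15a, which guides a phosphatase that restores translation (-0.40 ± 0.12, adjusted p = 0.043). Of 31 cell death genes 3 were called higher and 1 lower, about the 11.9% of all genes called, with a median of 0.05 that turned to -0.17 scaled to the bipolar list. Casp4, an inflammatory caspase, had 2.21, 1.68 and 0.926 CPM in Hal200, against 0.628, 0.262 and 0.811 CPM in control (1.49 ± 0.40, adjusted p = 0.022), and Gsdmd, the pore protein of pyroptosis, was at 0.63 ± 0.19 (adjusted p = 0.035). Bcl2l1, which inhibits apoptosis, was at 0.29 ± 0.09 (adjusted p = 0.048) and Aifm1, a mitochondrial flavoprotein, at -0.45 ± 0.13 (adjusted p = 0.029). Of 14 heat shock genes edgeR called 0, DESeq2 1 and voom with quality weights 4 (median 0.03, and -0.20 scaled to the bipolar list). Of 19 cell cycle genes the same tools called 0, 2 and 3 (median -0.18). Scaled to the bipolar list Gsdmd (adjusted p = 0.16) and Bcl2l1 (adjusted p = 0.74) lost their calls, and Bcl2l1 also with DESeq2 size factors (adjusted p = 0.055) or no filter (adjusted p = 0.052). The cell death count was 0 without Hal200 replicate 1 or 2 or control replicate 2 and 1 without control replicate 1, and the stress count 0 without Hal200 replicate 1 or 2 or control replicate 1 or 2 and 4 without Hal200 replicate 3.

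Among 31 antioxidant genes 2 were called higher, near the 7.25% of all genes called higher, with a median of 0.15 that turned to -0.08 scaled to the bipolar list. Mt2A, a metallothionein, had 12.9, 14.7 and 4.86 CPM in Hal200, against 2.55, 3.86 and 6.69 CPM in control (1.31 ± 0.33, adjusted p = 0.017), and Cat, catalase, was at 0.29 ± 0.06 (adjusted p = 0.0061), a call lost when scaled to the bipolar list (adjusted p = 0.61). The count was 0 without Hal200 replicate 1, 1 without Hal200 replicate 2 or control replicate 1 or 2, and 4 without Hal200 replicate 3 or control replicate 3. The astrocyte list held 1 call, S100b, at 140, 128 and 67.4 CPM in Hal200, against 74.2, 69.9 and 51.9 CPM in control (0.77 ± 0.22, adjusted p = 0.03), lost when scaled to the bipolar list (adjusted p = 0.078), while the list's median was -0.35, and without any 1 library other than Hal200 replicate 3 the count was 0. Serpina3n, an acute-phase protein of glia, had 235, 34.9 and 10.5 CPM in Hal200, against 20.2, 21.6 and 27.4 CPM in control, so its mean rests on Hal200 replicate 1. The pigment epithelium genes took 0.0658, 0.0803 and 0.0548% of counts in Hal200, against 0.0467, 0.0513 and 0.0922% in control. Haemoglobin and other erythrocyte genes took 0.00719, 0.0058 and 0.00189% of counts in Hal200, against 0.00236, 0.00246 and 0.00594% in control.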
